A study of Mus musculus with 6 samples.

Results

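The immunoglobulin heavy chain variable genes (Ighv) were followed in RNA of stimulated splenic regulatory T cells (Tregs). All 185 rows of the series table whose gene name starts with Ighv were taken, of 49585 genes in all. The groups were 3 libraries that carry the label Bach2-cKO (cKO commonly stands for conditional knockout) and 3 WT libraries. Every library came from C57BL/6 mice aged 7 weeks, from spleen cells sorted as B220-negative, CD4-positive and YFP-positive, with CD25 also named in the design text. Before poly(A) RNA was prepared, the sorted cells spent 24 hours on plates coated with anti-CD3 and anti-CD28. The sources used here say neither what drives YFP or the deletion nor which cells lack BACH2, and they do not say whether the libraries of a group came from separate mice. The p-values below therefore measure only the spread between these libraries, which may be technical. BACH2 is a transcriptional repressor that acts in B and T lymphocytes.

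In a developing B cell, 1 Ighv gene is joined to a diversity (D) and a joining (J) gene, and the joined exon is transcribed with a constant gene as the immunoglobulin heavy chain. The Ighv gene encodes most of the variable domain, including the first and the second complementarity-determining region, and a B cell or plasma cell transcribes mainly the Ighv gene it has joined. T cells rearrange their T cell receptor genes instead, so that rearranged Ighv RNA is a feature of the B lineage. B220, the antigen used here to gate B cells out, is low on plasma cells. The mix of Ighv genes in a bulk library reflects how many B lineage cells use each gene and how much RNA each cell makes, and fewer cells of a type and less RNA per cell cannot be told apart in such data. A level per Ighv gene does not tell how many rearranged clones it came from.

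The rows held 183 symbols, because Ighv5-8 and Ighv1-13 each have 2 records, all at 0. By annotation, 113 were V genes, 70 were V pseudogenes and 2 were the LV records of those repeated symbols. They lie on chromosome 12 between 113572927 and 116010093 of GRCm38, a span of 2.44 Mb, and 183 of them are on the minus strand. The members belong to 16 numbered families and resemble each other closely: the median identity of a member with its closest relative among the others was 93.6%. In 30 members, 16 of them tested, the closest relative was at 97% or more, so that reads of these genes could have been split between copies in the authors' counting.

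The stretches that encode the variable region in 5 members are shown, from its first codon, which follows 11 leader bases in the V exon, since these members carried the largest shares or the largest differences. They are reference sequences from the GENCODE M21 transcripts, given 5′ to 3′ on the coding (minus) strand of chromosome 12, GRCm38. Capitals mark the in-frame codons for tyrosine, tyrosine or phenylalanine, and cysteine that end framework 3, just before the stretch where the D gene is joined. They start at base 280 of the 294 bases shown for each Ighv1 gene and at base 277 of the 293 bases shown for Ighv2-9. Ighv1-81 (chr12:115920279-115920572), the largest Ighv gene in all 6 libraries, Ighv1-26 (chr12:114788372-114788665) and Ighv1-55 (chr12:115208095-115208388) belong to the large Ighv1 family, as does Ighv1-15 (chr12:114657353-114657646), which was high in 1 library. Ighv2-9 (chr12:113879096-113879388) belongs to another family.
Ighv1-81: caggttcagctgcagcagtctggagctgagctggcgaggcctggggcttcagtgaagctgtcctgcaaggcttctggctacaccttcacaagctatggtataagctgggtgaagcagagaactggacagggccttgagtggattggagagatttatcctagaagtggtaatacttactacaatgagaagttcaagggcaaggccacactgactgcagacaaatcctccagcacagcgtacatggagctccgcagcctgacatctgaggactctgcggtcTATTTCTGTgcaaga
Ighv1-26: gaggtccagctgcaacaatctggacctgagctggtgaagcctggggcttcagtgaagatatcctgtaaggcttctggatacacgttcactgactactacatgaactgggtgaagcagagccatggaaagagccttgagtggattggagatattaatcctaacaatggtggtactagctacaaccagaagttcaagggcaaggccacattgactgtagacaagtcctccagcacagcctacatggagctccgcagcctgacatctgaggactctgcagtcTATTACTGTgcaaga
Ighv1-55: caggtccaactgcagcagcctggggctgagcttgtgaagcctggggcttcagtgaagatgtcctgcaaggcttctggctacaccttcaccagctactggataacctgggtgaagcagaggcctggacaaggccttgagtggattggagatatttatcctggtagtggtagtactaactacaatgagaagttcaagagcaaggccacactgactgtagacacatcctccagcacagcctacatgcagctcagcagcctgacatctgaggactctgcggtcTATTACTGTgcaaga
Ighv1-15: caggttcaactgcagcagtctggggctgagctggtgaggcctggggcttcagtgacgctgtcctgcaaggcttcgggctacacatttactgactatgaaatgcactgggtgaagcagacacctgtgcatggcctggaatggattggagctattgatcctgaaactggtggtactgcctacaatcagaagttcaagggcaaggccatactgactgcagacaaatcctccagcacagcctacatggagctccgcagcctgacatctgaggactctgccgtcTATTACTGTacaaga
Ighv2-9: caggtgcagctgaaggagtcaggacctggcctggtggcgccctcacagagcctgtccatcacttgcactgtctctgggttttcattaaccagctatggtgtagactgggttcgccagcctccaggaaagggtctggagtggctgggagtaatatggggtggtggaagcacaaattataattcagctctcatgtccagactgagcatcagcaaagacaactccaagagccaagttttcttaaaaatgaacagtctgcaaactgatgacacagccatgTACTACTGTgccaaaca

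The values are FPKM (fragment counts divided by gene length and by the library total), as deposited by the authors, and whole reads were recovered from their steps. Read totals were 27703735, 31976067 and 27777210 in the Bach2-cKO libraries and 43884431, 30893921 and 27697735 in the WT libraries. The Ighv genes took 17700, 24424 and 16446 of these reads in the Bach2-cKO libraries and 13573, 11287 and 8870 in the WT libraries. For a gene of 350 bases, a typical size here, 3 reads corresponded to 0.268 to 0.309 FPKM in Bach2-cKO and 0.195 to 0.309 FPKM in WT. Bach2 itself averaged 104.7 ± 16.0 FPKM in Bach2-cKO and 107.6 ± 7.11 FPKM in WT (SD, n = 3 each), a log2 difference of -0.05 with limma adjusted p = 0.812. The gene level thus did not separate the groups, and a level over the whole gene need not fall when a part of it is deleted, so the groups are known by their labels alone. The Treg transcription factor Foxp3 was high in every library, at 123.2 ± 26.5 FPKM in Bach2-cKO and 116.0 ± 10.1 FPKM in WT (SD, n = 3 each).

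The summed level of all Ighv genes was higher in every Bach2-cKO library than in any WT library. It was 1763.2, 2106.2 and 1643.0 FPKM in Bach2-cKO replicates 1 to 3, against 865.6, 1018.5 and 893.2 FPKM in WT replicates 1 to 3. The means were 1837.5 ± 240.3 FPKM in Bach2-cKO and 925.8 ± 81.5 FPKM in WT (SD, n = 3 each), a 1.98-fold difference that exceeded the spread within either group. Ighv genes made up 0.263%, 0.312% and 0.246% of all FPKM in the Bach2-cKO libraries and 0.131%, 0.15% and 0.133% in the WT libraries. No p is given for this sum, because it is a score over the members.

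The number of Ighv genes above 0 FPKM overlapped between the groups, while the numbers at 1 FPKM or more and at 10 FPKM or more did not. Above 0 FPKM there were 115, 126 and 122 genes in Bach2-cKO and 121, 123 and 117 in WT, with the lowest and the highest number both in Bach2-cKO. With each library thinned to the 8870 Ighv reads of the smallest one, 111.3, 118.9 and 117.1 genes were expected in Bach2-cKO and 118.8, 121.2 and 117.0 in WT. At 1 FPKM or more there were 95, 98 and 95 genes in Bach2-cKO and 94, 94 and 84 in WT, a narrow separation. The means differed by 5.33 genes (pooled SD 4.26), and by 2.0 without WT replicate 3. At 10 FPKM or more there were 56, 57 and 56 genes in Bach2-cKO, against 33, 33 and 26 in WT. Counts at a fixed FPKM threshold are not independent of the Ighv sum, which was higher in every Bach2-cKO library. Over the 6 libraries together, 138 members were above 0 in at least 1 library, 106 in all 6, and 80 reached 1 FPKM in all 6. The 47 members at 0 throughout were 40 pseudogenes, the 2 LV records and 5 V genes: Ighv7-2, Ighv16-1, Ighv1-24, Ighv1-62-1 and Ighv8-13.

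**Figure D1:**
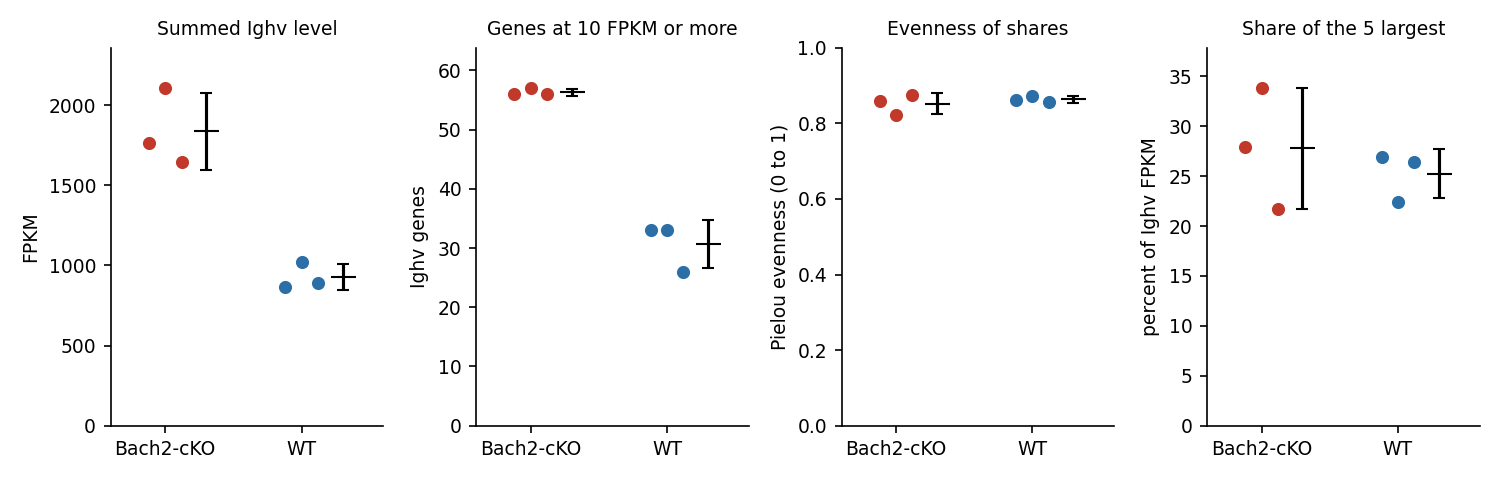
Each point is 1 library (3 of Bach2-cKO, 3 of WT), with the group mean and SD as a bar beside the points; the panels show the Ighv FPKM sum, the number of Ighv genes at 10 FPKM or more, Pielou evenness (0 to 1) and the percent of the Ighv FPKM sum in the 5 largest genes. The first 2 panels separate the groups, with sums of 1643.0 to 2106.2 FPKM in Bach2-cKO against 865.6 to 1018.5 FPKM in WT, and the last 2 do not. The first 2 measures are not independent of each other.

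The RNA was spread over many Ighv genes in every library, and no library was made up of a few. Pielou evenness, the Shannon entropy of the shares divided by its maximum for the genes detected, was 0.859, 0.823 and 0.875 in Bach2-cKO and 0.861, 0.873 and 0.856 in WT. The means, 0.8523 ± 0.0268 in Bach2-cKO and 0.8634 ± 0.00875 in WT (SD, n = 3 each), differed by less than the pooled SD of 0.0199. The effective number of genes, the number of equally abundant genes that would give the same entropy, was 58.8, 53.5 and 67.1 in Bach2-cKO and 62.2, 66.8 and 58.9 in WT. It took 17, 14 and 19 genes to hold 50% of the Ighv FPKM in the Bach2-cKO libraries and 17, 19 and 16 in the WT libraries.

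The 5 largest genes of each library held 27.9%, 33.8% and 21.7% of the Ighv FPKM in Bach2-cKO and 26.9%, 22.4% and 26.4% in WT. The 10 largest held 38.5%, 43.9% and 34.1% in Bach2-cKO and 37.7%, 34.2% and 40.1% in WT. Both measures overlapped between the groups, and Bach2-cKO replicates 2 and 3 were the extremes of the first one, so that both the highest and the lowest value were from Bach2-cKO. Ighv1-81 led in all 6 libraries, and Ighv1-81, Ighv1-26 and Ighv9-3 were among the 10 largest in all 6. In all, 20 genes entered the top 10 of at least 1 library.

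**Figure D2:**
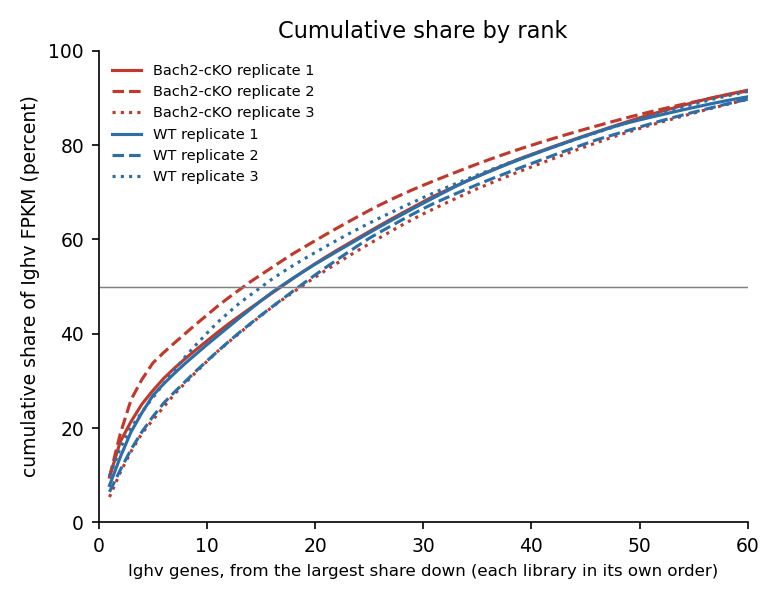
The cumulative percent of the Ighv FPKM sum (vertical axis) is plotted against the rank of the gene within its own library (horizontal axis, from the largest down, first 60 genes), 1 line per library. The 6 lines run close together and mix the groups; they cross 50% after 14 to 19 genes in Bach2-cKO and 16 to 19 genes in WT, and Bach2-cKO replicate 2 runs highest.

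Levels of the Ighv genes ran together across libraries, while the largest genes changed places. Pearson's r between libraries, over the log2(FPKM + 1) levels of the 138 genes above 0, was 0.956 to 0.96 within Bach2-cKO, 0.924 to 0.943 within WT and 0.92 to 0.954 between the groups. These r values run across genes of 1 locus that are not independent of each other, and they are descriptions. Of their 10 largest genes, pairs of libraries shared 5 to 6 within Bach2-cKO, 5 to 8 between the groups and 6 to 8 within WT. The spread within groups exceeded counting noise: over the Ighv reads of replicate pairs, chi-square per degree of freedom was 13.1 to 22.2 in Bach2-cKO and 8.96 to 12.5 in WT.

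Of the 185 Ighv genes, 94 passed the filter of at least 1 FPKM in at least 3 libraries, 91 V genes and 3 pseudogenes, and were tested in a limma fit over all 13766 genes that passed. At a Benjamini-Hochberg adjusted p under 0.05 over all of these, 46 Ighv genes rose in Bach2-cKO, which is 48.9% of those tested, and 48 were not called. In the whole fit 7.02% of genes were called higher and 8.31% lower. By limma 0 Ighv genes were called lower, 0 were lower at an unadjusted p under 0.05, and limma-voom on the recovered reads also called 0 lower. The log2 fold change was above 0 in 93 of the 94, and the exception was Ighv1-56 at -0.06. The median log2 fold change was 0.79 over the tested members and -0.02 over all genes tested. In 59 of the 94 tested members (62.8%) every Bach2-cKO library was above every WT library, and in 0 the reverse held. Over all genes tested, 15.5% had every Bach2-cKO library above every WT library.

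The number called depended on single libraries: it was 24 without Bach2-cKO replicate 2 and 23 without WT replicate 1. Calls over all 13766 genes fell as well, from 967 higher to 492 and 494 in these fits. With no filter on low values, 18 of 138 Ighv genes tested were called higher, beside 501 of 28530 genes in all. A set of 18 genes was called here and in each of 12 alternative fits, with log2 fold changes from 0.62 in Ighv13-2 to 2.61 in Ighv1-55. They are the same 18 genes that were called with no filter. The number of all genes called in every fit is not given, so this set has no share to be judged against. Of the 94, 11 passed the filter through all 3 Bach2-cKO libraries while at least 1 WT library was below 1 FPKM, so their passing is not independent of the difference. Among the 80 at 1 FPKM or more in all 6 libraries, 40 were called higher, and the share of all genes at that filter is not given.

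**Figure D3:**
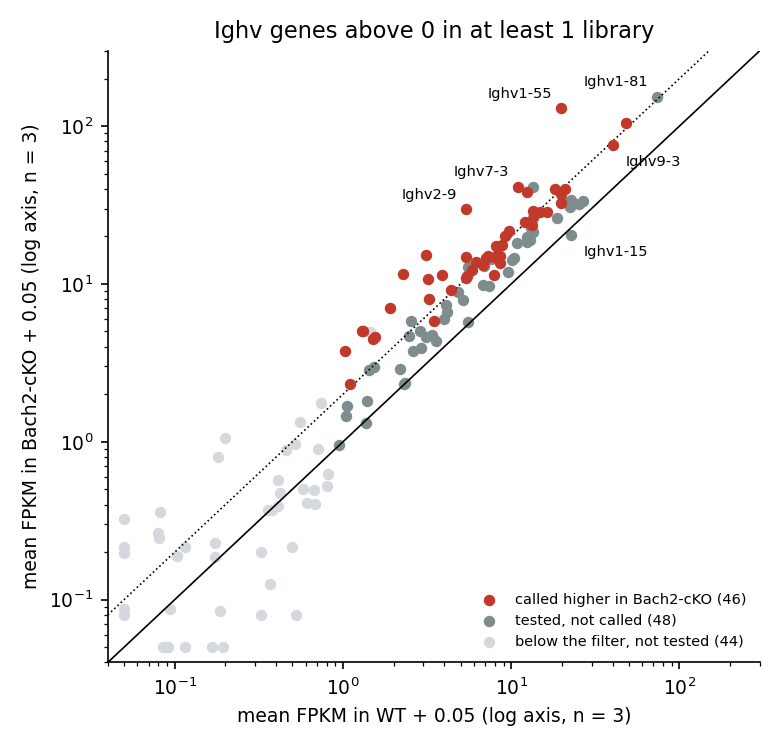
Mean FPKM in Bach2-cKO (vertical axis) is plotted against mean FPKM in WT (horizontal axis), n = 3 each, on log axes with 0.05 added, for the 138 Ighv genes above 0 in at least 1 library. The solid line is equality and the dotted line is 2-fold higher in Bach2-cKO; the 46 genes called higher are spread over the range of levels above the filter, and the 44 pale points are genes below the filter.

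The largest Ighv genes are described first. Ighv1-81 was at 169.1, 202.7 and 88.1 FPKM in Bach2-cKO and 67.6, 65.8 and 87.2 FPKM in WT. All Bach2-cKO values lay above all WT values, but replicate 3 only just did, and the log2 fold change of 0.98 was not called (SE 0.283, limma adjusted p = 0.0568). Without Bach2-cKO replicate 3 it was 1.33 (adjusted p = 0.00216). Its share of the Ighv FPKM was 9.59%, 9.62% and 5.36% in Bach2-cKO and 7.81%, 6.46% and 9.77% in WT, so that its rank did not come from 1 group.

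Ighv1-26 was at 75.5, 152.7 and 86.2 FPKM in Bach2-cKO and 46.4, 44.6 and 53.5 FPKM in WT, and it rose by 1.04 on the log2 scale (SE 0.237, limma adjusted p = 0.0255). Ighv9-3, a gene of a small family, was at 64.8, 89.7 and 73.3 FPKM in Bach2-cKO and 34.9, 47.4 and 38.8 FPKM in WT, and it rose by 0.89 (SE 0.144, limma adjusted p = 0.00681). Neither gene's groups overlapped. Ighv1-26 was no longer called without WT replicate 1 (adjusted p = 0.0885) or WT replicate 2 (adjusted p = 0.0833), at log2 fold changes of 1.02 and 0.99.

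Ighv1-55 had the largest log2 fold change on the log2(FPKM + 1) scale. It was at 132.8, 193.1 and 62.2 FPKM in Bach2-cKO and 11.6, 29.2 and 18 FPKM in WT, which is 2.61 higher on the log2 scale (SE 0.439; limma adjusted p = 0.00823). Its place depends on the scale, since Ighv8-5 was above it with limma-voom (2.93 in Ighv8-5, 2.78 in Ighv1-55), with a pseudocount of 0.1 (2.8 in Ighv8-5, 2.67 in Ighv1-55) and without Bach2-cKO replicate 2 (2.27 in Ighv8-5, 2.25 in Ighv1-55). The groups were far apart, and the Bach2-cKO libraries also differed widely among themselves. Its share of Ighv FPKM was 7.53%, 9.17% and 3.79% in Bach2-cKO, against 1.34%, 2.87% and 2.02% in WT. By recovered reads it took 2562 of 24424 Ighv reads in Bach2-cKO replicate 2, or 10.5% (95% Wilson interval 10.1 to 10.9), and 211 of 13573 in WT replicate 1, or 1.55% (1.36 to 1.78). Intervals of this kind cover counting error only, since reads are not independent molecules. Its closest relative, at 96.9% identity, was Ighv1-62.

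Ighv2-9 had the smallest adjusted p of the Ighv genes. It was at 38.7, 21.5 and 28.8 FPKM in Bach2-cKO and 5.22, 5.54 and 5.29 FPKM in WT, which is 2.23 higher on the log2 scale (SE 0.186; limma adjusted p = 0.000589). The 3 WT libraries were nearly equal and every Bach2-cKO library was far above them. Ighv7-3 was at 50.1, 28.4 and 45.1 FPKM in Bach2-cKO and 11.5, 9.95 and 11.3 FPKM in WT, and it rose by 1.79 (SE 0.193, limma adjusted p = 0.00146). Ighv10-1 was at 28.1, 40.5 and 46.5 FPKM in Bach2-cKO and 11.5, 15.5 and 9.76 FPKM in WT, and it rose by 1.56 (SE 0.212, limma adjusted p = 0.00355). In each of these genes the lowest Bach2-cKO library was above the highest WT library.

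Ighv1-63 was at 22.4, 13.3 and 9.54 FPKM in Bach2-cKO and 2.34, 3.32 and 3.5 FPKM in WT, which is 1.92 higher on the log2 scale (SE 0.277; limma adjusted p = 0.00447). Its closest relative, Ighv1-73, is 97.2% identical, so its reads are uncertain. Ighv8-5 rose by 2.15 (SE 0.526, limma adjusted p = 0.0331), with 18.4, 8.82 and 7.44 FPKM in Bach2-cKO and 0.764, 5.15 and 0.706 FPKM in WT. WT replicate 2 was thus well above the other WT libraries and still below every Bach2-cKO library. Ighv1-34 was at 4.0, 4.43 and 6.49 FPKM in Bach2-cKO and 1.23, 2.25 and 0.279 FPKM in WT (log2 1.48, limma adjusted p = 0.0243). Ighv3-1 averaged 10.7 ± 5.45 FPKM in Bach2-cKO and 3.17 ± 1.77 FPKM in WT (SD, n = 3 each; log2 1.47, limma adjusted p = 0.0372). These last 3 calls were fragile. Ighv8-5 lost its call without any 1 of 4 libraries, Bach2-cKO replicate 1 or 2 or WT replicate 1 or 3, with limma adjusted p up to 0.115. Ighv1-34 lost its call without Bach2-cKO replicate 2 or 3 or WT replicate 1, with limma adjusted p up to 0.0738. Ighv3-1 lost its call without Bach2-cKO replicate 2 or 3 or WT replicate 1 or 3, with limma adjusted p up to 0.122. With the replicate number as a block, the adjusted p was 0.053 for Ighv8-5, 0.0588 for Ighv1-34 and 0.0726 for Ighv3-1. Ighv8-5 and Ighv1-34 are also among the 11 genes whose passing of the filter is not independent of the difference.

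Of the other genes with the largest mean shares, Ighv1-64, Ighv1-9 and Ighv6-3 rose and Ighv8-8, Ighv1-18 and Ighv1-82 were not called. Ighv1-64 averaged 39.7 ± 7.03 FPKM in Bach2-cKO and 20.7 ± 4.59 FPKM in WT (limma adjusted p = 0.0132). Ighv1-9 averaged 37.0 ± 5.49 FPKM in Bach2-cKO and 19.8 ± 3.23 FPKM in WT (limma adjusted p = 0.00721). Ighv6-3 averaged 40.1 ± 10.3 FPKM in Bach2-cKO and 18.1 ± 4.1 FPKM in WT (limma adjusted p = 0.0149). Each of these means is over 3 libraries with its SD. Ighv1-64 and Ighv6-3 lost their calls without Bach2-cKO replicate 2 (adjusted p = 0.0516 and 0.0547) or WT replicate 1 (0.0572 and 0.0635). By contrast, Ighv1-18 was at 33.5, 31.2 and 31.1 FPKM in Bach2-cKO and 31.2, 23.9 and 21 FPKM in WT (log2 0.34, SE 0.134, limma adjusted p = 0.135), and the groups overlapped narrowly. Ighv8-8 was at 28.4, 35.4 and 36.9 FPKM in Bach2-cKO and 21.6, 32.5 and 26.2 FPKM in WT (log2 0.32, SE 0.155, limma adjusted p = 0.205). Ighv1-82 was at 29.0, 42.2 and 30.2 FPKM in Bach2-cKO and 17.0, 21 and 29.3 FPKM in WT (log2 0.58, SE 0.208, limma adjusted p = 0.103). Ighv1-18 was called without WT replicate 1 (adjusted p = 0.0275) and Ighv1-82 without WT replicate 3 (adjusted p = 0.0377). A p that missed the threshold does not show that these levels were the same.

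**Figure D4:**
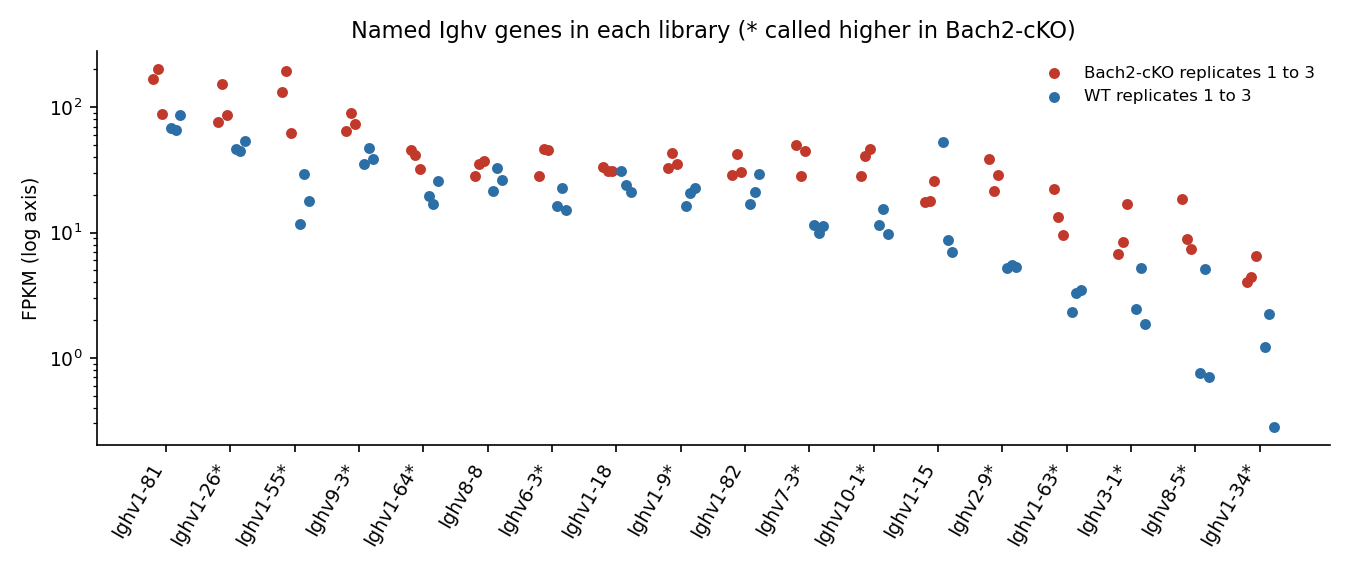
FPKM (log axis) of the 18 Ighv genes named by rule in each library, 3 Bach2-cKO points on the left and 3 WT points on the right of each gene, from the highest mean level to the lowest; an asterisk marks the 13 called higher. All 3 Bach2-cKO points of Ighv2-9 (21.5 to 38.7 FPKM) lie well above its 3 WT points (5.22 to 5.54 FPKM), and the single high WT point of Ighv1-15 is WT replicate 1 at 52.3 FPKM.

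Ighv1-15 stood out in 1 library. It was at 17.6, 17.9 and 25.9 FPKM in Bach2-cKO and 52.3, 8.67 and 6.99 FPKM in WT, so that 1 WT library was above all others and the remaining 2 below all Bach2-cKO libraries. In WT replicate 1 it held 6.04% of the Ighv FPKM, and its highest share elsewhere was 1.58%. By reads this was 806 of 13573, or 5.94% (95% Wilson interval 5.55 to 6.35), which made it the second Ighv gene of that library. Its log2 fold change was 0.40 (SE 0.648, limma adjusted p = 0.72), 1.27 without WT replicate 1 (adjusted p = 0.0158) and -0.10 without WT replicate 3 (adjusted p = 0.932). Ighv1-15 is 98.0% identical to Ighv1-23, so its reads are uncertain too. By the rule used, a share of at least 1% that is at least 3 times that in each other library, no other Ighv gene stood out. Ighv14-2, named after its values were seen, was also highest in a WT library but fell short of the rule. It held 3.7% of the Ighv FPKM in WT replicate 2, and its highest share elsewhere was 1.67%. Its level was 37.7 FPKM in WT replicate 2, against 24.5, 26.7 and 27.4 FPKM in Bach2-cKO and 10.5 and 7.51 FPKM in the other WT libraries.

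Shares moved between libraries by a factor that differed widely among genes. Over the 80 members at 1 FPKM or more in all 6 libraries, the ratio of the highest to the lowest share of a gene had a median of 1.96, with 13 genes below 1.5 and 16 at 3 or more. The extremes were Ighv1-15 at 7.72 and Ighv8-12 at 1.08. Ighv8-12, named after its values were seen, followed the sum of all Ighv genes closely: it was at 23.4, 27.9 and 22.3 FPKM in Bach2-cKO and 11.4, 12.9 and 11.9 FPKM in WT, and it rose by 0.96 on the log2 scale (SE 0.101, limma adjusted p = 0.0013). Ighv1-55 had a ratio of 6.85.

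Higher levels were found across the families and not in 1 alone. Of the 16 families, 15 had a member above 0, and in 13 of these every Bach2-cKO sum was above every WT sum. The exceptions were Ighv14, where WT replicate 2 reached 67.4 FPKM against 61.9, 74.4 and 72.0 FPKM in Bach2-cKO, and Ighv15. The family sums are parts of the Ighv sum, whose groups did not overlap either, so they are not separate results. Over all single genes tested, 15.5% had every Bach2-cKO library above every WT library. A share for sums of other genes is not given. Ighv1, the largest family with 93 members, was at 1018.3, 1294.6 and 850.5 FPKM in Bach2-cKO and 513.4, 530.2 and 508.6 FPKM in WT, and 22 of its 47 tested members rose. Its share of the Ighv FPKM was 57.8%, 61.5% and 51.8% in Bach2-cKO and 59.3%, 52.1% and 56.9% in WT, and these overlap. Ighv2 had 6 of 8 tested members higher, Ighv8 had 3 of 4, Ighv6 had 2 of 2 and Ighv3 had 3 of 6. Ighv5 had 3 of 9, and its sum was 125.0, 130.0 and 133.8 FPKM in Bach2-cKO and 71.6, 90.6 and 70.6 FPKM in WT. Ighv11-2, named after its values were seen, rose to 6.89, 3.87 and 2.89 FPKM in Bach2-cKO, against 1.73, 1.26 and 1.49 FPKM in WT (limma adjusted p = 0.0274), and it is 98.9% identical to Ighv11-1.

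Position along the locus was compared next, since Ighv genes near the D genes and far from them are joined at different rates in B cell development. The 185 members were cut by position into 3 parts of 61 or 62 genes. In the part nearest to the D genes (proximal) 17 of 35 tested genes rose, in the middle part 14 of 27 and in the distal part 15 of 32. The sums were 530.4, 542.7 and 539.5 FPKM in Bach2-cKO against 247.1, 336.1 and 268.8 FPKM in WT for the proximal part. For the middle part they were 433.7, 594.0 and 509.1 FPKM in Bach2-cKO against 298.6, 292.7 and 260.3 FPKM in WT. For the distal part they were 799.1, 969.5 and 594.4 FPKM in Bach2-cKO against 319.9, 389.6 and 364.1 FPKM in WT. Groups did not overlap in any of these parts, which together make up the Ighv sum and so are not separate results. The distal part held 45.3%, 46.0% and 36.2% of Ighv FPKM in Bach2-cKO and 37.0%, 38.3% and 40.8% in WT, so its share did overlap, and Ighv1-55 and Ighv1-81 lie in it.

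**Figure D5:**
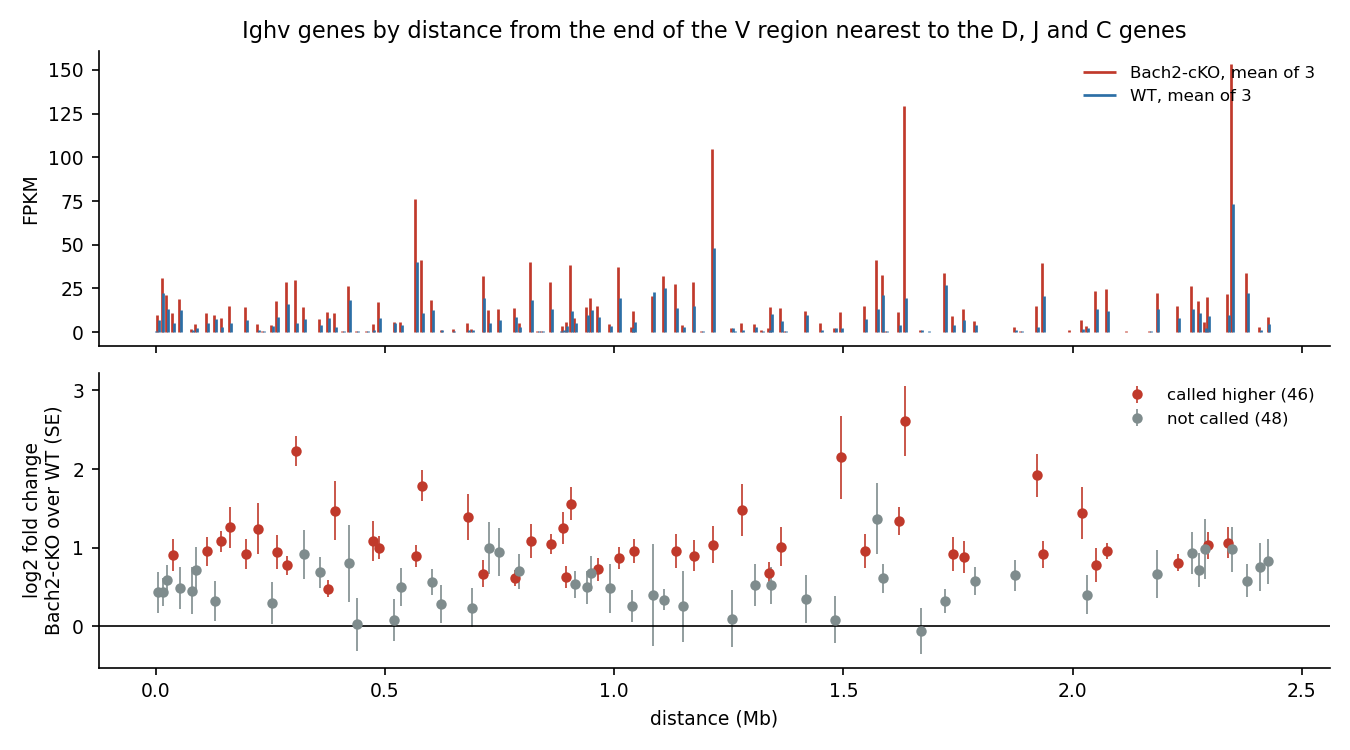
Ighv genes by distance in Mb from the end of the V region nearest to the D, J and constant genes (horizontal axis). The upper panel gives the mean FPKM of 3 libraries per group; the lower panel gives the log2 fold change of Bach2-cKO over WT with its SE for the 94 tested genes, 46 of them called higher, which are found along the whole 2.44 Mb.

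The pseudogenes contributed little. Together the 70 of them were at 13.6, 14.2 and 13.8 FPKM in Bach2-cKO and 9.19, 11 and 9.58 FPKM in WT, of which 30 were above 0. They held 0.773%, 0.675% and 0.838% of the Ighv FPKM in Bach2-cKO and 1.06%, 1.08% and 1.07% in WT. Of the 3 tested, Ighv1-2 and Ighv1-38 rose, and both were chosen for naming after their values were seen. Ighv1-2 was at 6.21, 5.29 and 5.9 FPKM in Bach2-cKO and 2.89, 3.25 and 4.11 FPKM in WT, and it overlaps Mir7094-1, so its reads are uncertain.

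Some neighbours in sequence differed widely in level. Ighv1-72 and Ighv1-62-3, named after their values were seen, differ at 3 of the 305 bases of the V exon's coding part. Ighv1-72 was at 13.1, 32.2 and 21.8 FPKM in Bach2-cKO and 16.4, 13.1 and 9.85 FPKM in WT, and it was not called (limma adjusted p = 0.183). Ighv1-62-3 was at 0.0891, 0.849 and 0.622 FPKM in Bach2-cKO and 0.281, 0.719 and 0.0891 FPKM in WT, under the filter. With so few differences, the division of reads between this pair is uncertain. The stretch with 2 of the 3 differences, in capitals, is shown for chr12:115758204-115758288 (Ighv1-72) and chr12:115461219-115461303 (Ighv1-62-3), GRCm38, coding (minus) strand.
Ighv1-72: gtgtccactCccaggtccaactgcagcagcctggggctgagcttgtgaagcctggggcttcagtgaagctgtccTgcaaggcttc
Ighv1-62-3: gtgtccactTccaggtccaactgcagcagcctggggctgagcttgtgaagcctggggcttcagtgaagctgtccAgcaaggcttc

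The other parts of the heavy chain locus were examined on the same scale. Of the 8 constant genes 3 rose. Ighm, the constant gene of IgM, was at 2042.5, 2553.7 and 2126.9 FPKM in Bach2-cKO and 1240.1, 1540.4 and 1197.1 FPKM in WT (log2 0.76, SE 0.129, limma adjusted p = 0.00864). Ighd, of IgD, averaged 165.6 ± 44.8 FPKM in Bach2-cKO and 106.9 ± 4.34 FPKM in WT (SD, n = 3 each; limma adjusted p = 0.0489), a call that was lost without Bach2-cKO replicate 1 or any 1 WT library (adjusted p up to 0.146). Ighg3, of IgG3, was at 16.6, 24.0 and 12.2 FPKM in Bach2-cKO and 6.53, 3.32 and 5.31 FPKM in WT (limma adjusted p = 0.00816). The other constant genes, Ighg1, Ighg2b, Ighg2c, Ighe and Igha, were not called. Igha was at 24.6, 15 and 3.74 FPKM in Bach2-cKO and 46.2, 14.2 and 8.95 FPKM in WT, with WT replicate 1 highest. Ighm made up most of the constant gene level, and among the 18 tested J and D genes 3 rose (Ighj3, Ighj4 and Ighd2-8). Ighd2-8 passed the filter through the Bach2-cKO libraries, with 6.37, 11 and 2.12 FPKM in Bach2-cKO and 0, 0 and 2.12 FPKM in WT, and its call (limma adjusted p = 0.0468) was lost without Bach2-cKO replicate 1 or 2 or WT replicate 1 or 2 (adjusted p up to 0.149). Ighj4, the highest, averaged 441.9 ± 20.7 FPKM in Bach2-cKO and 292.5 ± 13.4 FPKM in WT (SD, n = 3 each; limma adjusted p = 0.00154).

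B lineage markers were present in all 6 libraries despite the B220-negative sort, and they moved with the Ighv genes in part. Of 20 B cell markers tested, 6 rose, among them Cd22, Pax5, Bank1, Ms4a1 and Btk, and 0 fell, with a median log2 fold change of 0.33. None of them was at 0, and their summed level was 2663.8, 3425.6 and 3126.5 FPKM in Bach2-cKO and 2134.2, 3007.0 and 2048.2 FPKM in WT, which overlap. Cd79a, a subunit of the B cell receptor, was at 286.2, 350.4 and 334.2 FPKM in Bach2-cKO and 234.3, 358.1 and 209.9 FPKM in WT and was not called (limma adjusted p = 0.315). The number of B cell markers called moved with single libraries, to 3 without Bach2-cKO replicate 2, 2 without WT replicate 1, 11 without WT replicate 2 and 2 without WT replicate 3.

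Of 14 plasma cell genes 13 were tested, 7 rose (Prdm1, Xbp1, Pou2af1, Mzb1, Eaf2, Jchain and Derl3) and 0 fell, with a median log2 fold change of 0.75. Leaving out 1 library at a time gave 6 to 9 higher. Their summed level was 1204.0, 1393.8 and 1113.8 FPKM in Bach2-cKO and 740.4, 834.3 and 828.5 FPKM in WT. Jchain, the joining chain of polymeric IgM and IgA, was at 38.5, 49.1 and 33.7 FPKM in Bach2-cKO and 14.6, 11.4 and 19.0 FPKM in WT (log2 1.38, SE 0.193, limma adjusted p = 0.00391). Mzb1, a chaperone of antibody secretion, averaged 143.0 ± 28.5 FPKM in Bach2-cKO and 65.7 ± 6.15 FPKM in WT (SD, n = 3 each; limma adjusted p = 0.00322). Sdc1, the plasma cell surface marker syndecan-1, was not called, at 8.41 ± 2.01 FPKM in Bach2-cKO and 8.66 ± 1.14 FPKM in WT (SD, n = 3 each; limma adjusted p = 0.863). Tnfrsf17, the member that was not tested, averaged 0.0807 ± 0.0631 FPKM in Bach2-cKO and 0.155 ± 0.159 FPKM in WT (SD, n = 3 each). The Derl3 call (limma adjusted p = 0.0492) was lost without Bach2-cKO replicate 1 or 2 or any 1 WT library (adjusted p up to 0.136). Prdm1, Xbp1 and Irf4 of this list are also expressed by Tregs. The part of B cell or plasma cell RNA in the Ighv result was not tested.

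The Ighv sum was also set against these genes within each library. Per unit of Ighm FPKM it was 0.863, 0.825 and 0.773 in Bach2-cKO and 0.698, 0.661 and 0.746 in WT, so that the lowest Bach2-cKO value was above the highest WT value by a small margin. Per unit of Cd79a FPKM it was 6.16, 6.01 and 4.92 in Bach2-cKO and 3.69, 2.84 and 4.25 in WT. Per unit of the summed B cell markers it was 0.662, 0.615 and 0.526 in Bach2-cKO and 0.406, 0.339 and 0.436 in WT. Per unit of the summed plasma cell genes it was 1.46, 1.51 and 1.48 in Bach2-cKO and 1.17, 1.22 and 1.08 in WT. None of these ratios overlapped between the groups. Ratios to the CD8 T cell and myeloid lists, described below, did overlap. Set against the summed CD8 T cell genes, the Ighv sum was 7.47 to 11.4 in Bach2-cKO and 8.73 to 10.7 in WT. Set against the summed myeloid genes, it was 13.2 to 16.3 in Bach2-cKO and 13.3 to 17.8 in WT. Ratios to the NK cell, erythroid and surrogate light chain lists overlapped too, and those to the remaining lists did not.

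Other lists gave further context. Beside the counts in these lists and in those above, 7.02% of all genes tested were called higher and 8.31% lower. With 1 library left out, 492 to 1224 of all 13766 genes were called higher and 560 to 1375 lower. Of 8 CD8 T cell genes 6 rose, and 3 to 8 did when 1 library was left out. Their summed level was 236.1, 185.3 and 149.2 FPKM in Bach2-cKO and 99.19, 95 and 88.31 FPKM in WT, so these groups did not overlap either. Of 7 tested myeloid genes 1 rose, with 0 to 3 when 1 library was left out, and the list summed to 107.9, 141.4 and 124.7 FPKM in Bach2-cKO and 64.97, 57.3 and 58.56 FPKM in WT. No member of either list was at 0 throughout. The part of such cells in the Ighv result was not tested. By limma 0 of the 5 tested germinal centre and class switch genes, 0 of the 10 V(D)J recombination genes, 0 of the 2 tested NK cell genes and 0 of the 6 tested erythroid genes were called. With 1 library left out, 1 germinal centre gene was called higher without Bach2-cKO replicate 3 and 1 erythroid gene without Bach2-cKO replicate 1. None of the 3 surrogate light chain genes, which B cell precursors express, passed the filter. Of 10 transcription factors of the immunoglobulin loci, 2 rose and 1 fell, with 2 to 4 higher and 0 to 1 lower when 1 library was left out. The 2 that rose, Pax5 and Pou2af1, were already counted above, among the B cell markers and the plasma cell genes. Of 12 Treg and T cell genes 1 rose and 3 fell; leaving out 1 library gave 1 to 2 higher and 1 to 6 lower, with 6 lower without Bach2-cKO replicate 3. Of 6 tested dendritic cell genes 0 rose and 1 fell, with 0 to 1 in either direction when 1 library was left out. Over tested members, the median log2 fold change was 0.85 in the CD8 T cell, 0.87 in the myeloid and 0.79 in the erythroid list. It was 0.22 in the germinal centre, 0.16 in the NK cell and 0.13 in the dendritic cell list. In the V(D)J recombination and transcription factor lists it was -0.01, and in the Treg and T cell list -0.21.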

How the data were processed

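Poly(A) RNA was sequenced from 6 libraries of sorted, stimulated splenic Tregs, 3 Bach2-cKO and 3 WT. The submitters' processing notes list HISAT2 2.0.5, featureCounts 1.5.0-p3 and the build mm9. Annotation, filters and the use of strand or of reads with several matches: not given in the sources used here. FPKM per gene and library is what the authors deposited. All 185 Ighv genes, and 91.5% of the gene identifiers that GENCODE M21 also holds, have the M21 positions, so coordinates are in GRCm38.

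FPKM values are whole multiples of 1 read's worth. Library totals and reads per gene were worked out from those steps (tolerance 0.001 reads). All 138 Ighv genes above 0 came out whole, 92 at the annotated length and 46 at another length. Recovered reads sum to 99.767% to 99.800% of the totals. No library was a copy of another.

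The test was limma 3.58.1 in R 4.3.3 (lmFit and eBayes with an intensity trend, two-sided, no covariate) on log2(FPKM + 1) for the 13766 genes that reached 1 FPKM in 3 or more libraries. Adjustment was by Benjamini-Hochberg over all 13766, with a threshold of 0.05. Fold changes are on this scale, which understates changes of low genes. Sums, shares, evenness and lists were described without a test. As FPKM is relative to a library's total, a shift in abundant genes would move all others. Plots were made in Matplotlib 3.10.9 (Python 3.11.15).

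The members and lists were chosen with earlier results of these data known. Ighv genes were named by rule: the 10 with the largest mean share, any with a share of at least 5% in a library, up to 8 called with the largest rise and up to 8 with the largest fall, and any that stood out in 1 library. Of each other list, the member with the highest mean level and up to 4 called members by smallest p were to be named. This plan was not followed throughout. Cd79a was named in place of Cd79b, the B cell marker with the highest mean, and no CD8 T cell or myeloid gene was named. The NK cell, dendritic cell, erythroid, germinal centre, V(D)J recombination and surrogate light chain lists had no gene named either. Of the Treg and T cell list only Foxp3 was given, which was not called. Of the transcription factors only Pax5 and Pou2af1 were named, so the called genes of these lists are not all named. Others were named after their values were seen. Alternatives were median-ratio scaling, limma-voom with TMM scaling on recovered reads, no filter, a filter of 10 reads in 3 libraries, a smaller pseudocount (0.1), a block for the replicate number, leaving out each library, and sums over reads, without pseudogenes or without Ighv1-81. Values of 1 gene of the lists are not reported here.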

Additional observations from a re-analysis of the deposited data

How the results depend on the processing

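The number of Ighv genes called higher, 46, was 47 with median-ratio scaling, 48 with limma-voom on recovered reads, 46 with a pseudocount of 0.1 and 46 with the filter on reads. It fell to 18 with no filter on low values, where 138 Ighv genes were tested, and all 18 were among the 46. The cause was not tested. Leaving out 1 library gave 23 to 50, with 23 without WT replicate 1 and 24 without Bach2-cKO replicate 2. Over all genes, the number called higher was 967 in the main fit and 501 with no filter. It was 1085 with median-ratio scaling, 1283 with limma-voom, 942 with a pseudocount of 0.1 and 981 with the filter on reads. It was 492 to 1224 with 1 library left out. The number called lower was 0 in each of the 12 alternative fits.

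The replicate numbers were not shown to pair libraries: deviations from the group means in same-numbered libraries correlated at -0.0526, 0.00578 and -0.215. With the replicate block, 41 Ighv genes were called higher, 36 of them among the 46. Over all genes, 625 were called higher with the block, against 967 in the main fit. Libraries did not each correlate best with their own number.

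Of 216 values for the 18 named genes under these fits, 184 kept their direction and side of the threshold, 26 lost the call, 5 gained it and 1 reversed, Ighv1-15, with -0.102 to 1.27 when 1 library was left out and -0.102 without WT replicate 3. The log2 ratio of the Ighv sums, 0.989, was 0.879 to 1.06 with 1 library left out, 1.0 by reads, 0.994 without pseudogenes and 0.983 without Ighv1-81. The differences in evenness, -0.0111, and in the share of the 5 largest genes, 2.56 percentage points, changed sign without Bach2-cKO replicate 2, to 0.0036 and -0.427. Without Bach2-cKO replicate 3 they were -0.0226 and 5.61, larger in size than the pooled SDs of 0.0199 and 4.61. Those SDs are over all libraries, including the one left out.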
